A study of Mus musculus with 3 samples.

Results

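Matrix metalloproteases and their tissue inhibitors were followed in mouse epididymis RNA across removal of the testes and testosterone replacement. The group held 10 genes: the 7 proteases Mmp2, Mmp3, Mmp7, Mmp9, Mmp11, Mmp12 and Mmp14 and the 3 inhibitors Timp1, Timp2 and Timp3. They were taken by symbol from 23538 genes listed in each library. For 9 of them the symbol stood in the deposited files, and the row of Mmp7 (ENSMUSG00000018623), which carried no symbol, was named through the GENCODE M21 annotation of its identifier.

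The study used adult male ICR mice, an outbred strain. Cas+T was a group of 5 mice castrated on both sides with the epididymides left in place and then given testosterone propionate, an injectable testosterone ester, under the skin at 5 mg/kg in corn oil. That treatment started 14 days after surgery and ran for 10 days. Cas+CO was a group of 5 mice castrated in the same way and given the corn oil vehicle alone. Sham was a group of 3 mice that had surgery without loss of the testes, and no injection is recorded for them. Each group gave 1 library. How many mice were pooled in it, and which segment of the duct it held, is not stated. With 1 library a group, every difference below is between 2 libraries, and it has no replicate error and no test.

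Matrix metalloproteases are zinc enzymes that cut collagens, laminins, elastin and many cell surface proteins. They are made as inactive precursors, and removal of the propeptide by plasmin, furin-like convertases or another metalloprotease switches them on. Tissue inhibitors of metalloproteases block the active enzymes, and their balance with the proteases is known to shift when hormone-dependent glands such as the prostate regress after castration.

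The promoters of the 3 members that lie in the protease cluster of chromosome 9 are shown because Mmp7 and Mmp12, the members with the widest spread between libraries, both lie there and have opposite patterns. Sequences are those of RefSeq on GRCm38.p6, read on the plus strand from 250 bases before to 50 bases after an annotated start. They cover chr9:7691840-7692139 for Mmp7, chr9:7445572-7445871 for Mmp3, and chr9:7344147-7344446 and chr9:7347124-7347423 for the upstream and downstream starts of Mmp12. Capitals mark matches on either strand to TGANTCA, the motif of the AP-1 factors, to TATAAA, the TATA box, and to AGAACA, an arm of the androgen response element.
Mmp7: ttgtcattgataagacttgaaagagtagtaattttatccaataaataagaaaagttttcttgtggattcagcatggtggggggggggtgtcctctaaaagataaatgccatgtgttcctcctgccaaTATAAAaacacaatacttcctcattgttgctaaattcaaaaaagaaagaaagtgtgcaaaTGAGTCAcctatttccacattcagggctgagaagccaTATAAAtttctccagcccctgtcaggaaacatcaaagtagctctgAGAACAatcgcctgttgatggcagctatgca
Mmp3: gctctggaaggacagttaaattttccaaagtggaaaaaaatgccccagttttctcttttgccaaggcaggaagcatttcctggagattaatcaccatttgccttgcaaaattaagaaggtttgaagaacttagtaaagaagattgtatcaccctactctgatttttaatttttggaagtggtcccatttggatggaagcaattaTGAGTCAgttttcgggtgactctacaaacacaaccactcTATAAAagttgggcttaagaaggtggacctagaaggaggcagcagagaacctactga
Mmp12 upstream start: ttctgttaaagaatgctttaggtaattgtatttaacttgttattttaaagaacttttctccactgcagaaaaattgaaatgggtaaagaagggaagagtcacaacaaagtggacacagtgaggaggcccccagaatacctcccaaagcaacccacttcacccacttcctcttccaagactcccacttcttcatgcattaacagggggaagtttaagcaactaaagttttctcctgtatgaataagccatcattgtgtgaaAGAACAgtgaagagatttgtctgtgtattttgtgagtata
Mmp12 downstream start: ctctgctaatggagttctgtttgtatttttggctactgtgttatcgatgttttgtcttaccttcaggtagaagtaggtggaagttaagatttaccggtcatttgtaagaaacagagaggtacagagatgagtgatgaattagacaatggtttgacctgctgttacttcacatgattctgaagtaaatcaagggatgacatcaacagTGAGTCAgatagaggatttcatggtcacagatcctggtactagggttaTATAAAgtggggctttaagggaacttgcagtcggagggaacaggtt
A TGANTCA match stood with its first base 63 bases before the start in Mmp7, 46 before it in Mmp3 and 44 before it at the downstream start of Mmp12. TATAAA began 123 and 26 bases before the start in Mmp7 and 7 bases before it in Mmp3. At the downstream start of Mmp12 it began 5 bases after the start. Across 32817 promoter windows of the same length, 7.81% held TGANTCA, 13.6% held TATAAA and 1.54% held both. AGAACA began 20 bases after the start in Mmp7 and 11 bases after the upstream start in Mmp12, and it was also in the window of Mmp11 and in a second Mmp7 window; 19% of all windows held it. The full androgen response element, in which AGAACA is followed after 3 bases by its inverted copy TGTTCT, was in no window of a member and in 3 of all windows. RefSeq windows were found for 8 of the 10 members. TGANTCA was in a window of 3 of those 8, and it was in none of the windows of Mmp11, Mmp14, Timp1, Timp2 and Timp3. Base composition differed between windows: G and C made up 38.7% to 40.7% of the 4 printed above and 55% to 68.7% of the 3 inhibitor windows. The protease windows not printed were at 67% for Mmp11, 56% for Mmp14 and 52% for the second window of Mmp7. The median of all windows was 52.7%.

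Values are TPM, a transcript level per length scaled to a fixed library total, which keeps no sequencing depth, so no counting interval can be given. Differences are of log2(TPM + 1) for genes at 1 TPM or more in at least 1 of the 2 libraries, and the limit for calling a gene higher or lower was 2-fold on that scale. Cas+CO stood apart from the other libraries. The median gene was at 2.83 TPM in Cas+T, 5.05 TPM in Cas+CO and 2.27 TPM in Sham, and the median difference over all genes was 0.76 for Cas+CO over Sham, −0.46 for Cas+T over Cas+CO and 0.30 for Cas+T over Sham. Bringing the libraries to the same median over 12670 genes lowered Cas+CO by 0.80 and Cas+T by 0.35 on the log2 scale. Differences after this median scaling are given where they change a call. The label epididymis was checked on 7 principal cell genes, led by Crisp1, whose summed level was 67605 TPM in Cas+T, 7236 TPM in Cas+CO and 90007 TPM in Sham. Rhox5 was the member of that list at 0 in Cas+CO. The 6 general epithelial markers, among them Epcam and Krt8, summed to 1998 TPM in Cas+T, 1953 TPM in Cas+CO and 1546 TPM in Sham. Markers of several other cell types differed widely. Adipocyte markers summed to 93.3 TPM in Cas+T, 1549 TPM in Cas+CO and 35.5 TPM in Sham, and red cell markers to 45.2, 2731 and 82.9 TPM in these libraries. In the same order B and plasma cell markers summed to 5.7, 360.3 and 1.82 TPM, T cell markers to 1.44, 20.3 and 0.59 TPM, endothelial markers to 23.8, 72.7 and 29.9 TPM and clear cell markers to 151, 330.0 and 85.8 TPM. Smooth muscle markers summed to 279.8, 557 and 918 TPM, with Actg2 alone at 47.7, 32.7 and 465 TPM. Basal cell markers summed to 167, 116 and 108 TPM, with Krt15 alone at 81.3, 10.25 and 43.1 TPM. The order of the libraries in each of these sums rested on that gene, and without it Cas+CO would be highest. The part of these cell types in the results below was not tested.

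**Figure D1:**
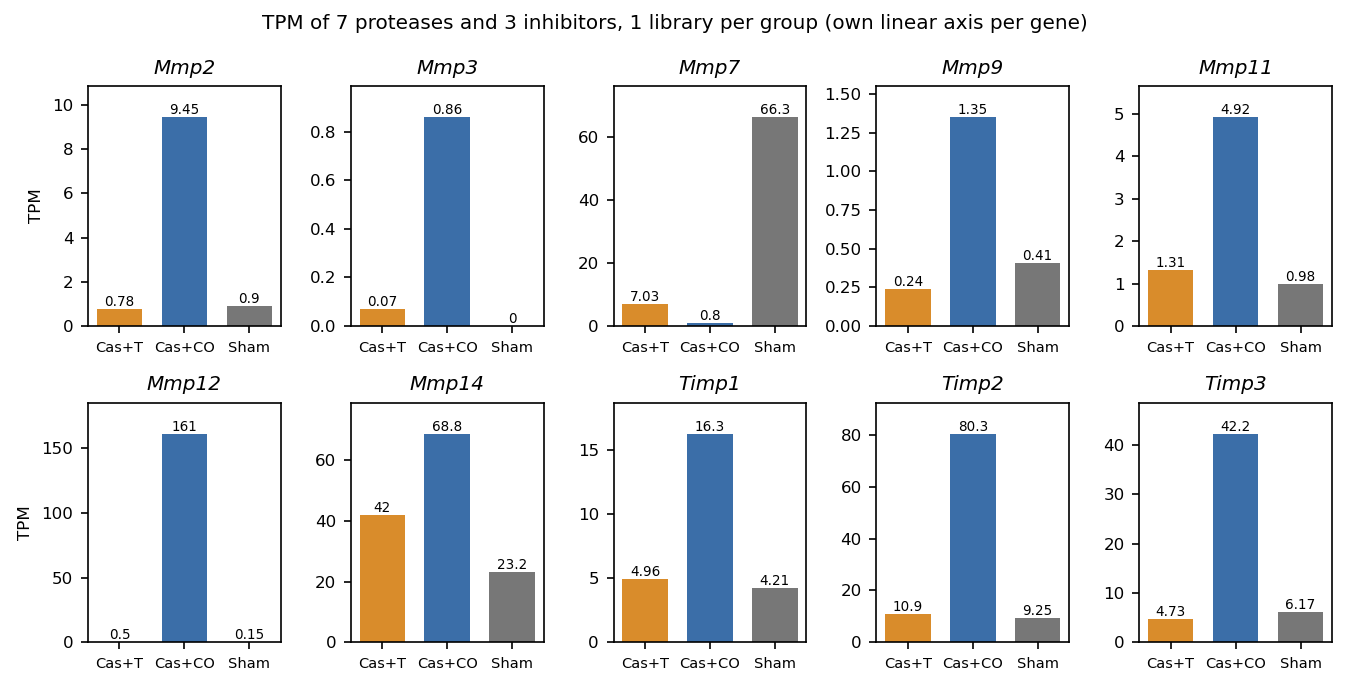
TPM of each of the 10 genes (vertical axis, linear, own range per gene) in the Cas+T, Cas+CO and Sham libraries, 1 bar per library and no error bars because each group had 1 library. Cas+CO is the highest bar for 9 genes, and Mmp7 is highest in Sham at 66.3 TPM. The median of all genes was also highest in Cas+CO, at 5.05 TPM beside 2.83 TPM in Cas+T and 2.27 TPM in Sham.

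Mmp7 was the member with its highest level in Sham. It encodes matrilysin, a small protease without the hemopexin domain, made by a restricted set of epithelia, the mouse epididymis among them. Mmp7 (GRCm38 chromosome 9, 7692090 to 7699585, plus strand) stood at 7.03 TPM in Cas+T, 0.8 TPM in Cas+CO and 66.3 TPM in Sham. It was thus the most abundant member in Sham, and in Cas+CO it lay at the low end beside Mmp3. Its log2 difference was −5.22 for Cas+CO over Sham, 2.16 for Cas+T over Cas+CO and −3.07 for Cas+T over Sham, so the Cas+T level lay between the other libraries and 9.43-fold below Sham. Median scaling left it past the 2-fold limit in all 3 comparisons, at −5.52, 2.16 and −3.37. In 100 TPM of general epithelial markers there was 0.352 TPM of Mmp7 in Cas+T, 0.041 TPM in Cas+CO and 4.29 TPM in Sham, a ratio that does not depend on the scaling of a library. Set against principal cell markers the picture rested on Crisp1, which made up 48.5% of their sum in Cas+T, 91.96% in Cas+CO and 49% in Sham. Per 100 TPM of these markers Mmp7 stood at 0.0104 TPM in Cas+T, 0.0111 TPM in Cas+CO and 0.0736 TPM in Sham, and without Crisp1 at 0.0202 TPM in Cas+T, 0.138 TPM in Cas+CO and 0.144 TPM in Sham. The genes of the principal cells and Mmp7 were thus both low in Cas+CO. In Cas+T they parted: per principal cell marker Mmp7 was lower there than in Sham, with and without Crisp1.

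Transcripts of other reproductive sources also differed between libraries, and not all in the order of Mmp7. Of 9 seminal vesicle and prostate markers, 5 were listed; they summed to 26.8 TPM in Cas+T, were all at 0 in Cas+CO and summed to 14.8 TPM in Sham, so Cas+T held the most. The 8 sperm and germ cell genes summed to 0.12 TPM in Cas+T, were all at 0 in Cas+CO and summed to 72.65 TPM in Sham. Ciliated cell genes, which mark the efferent ducts, were highest in Cas+CO. At least 2-fold higher in Cas+CO than in Sham were 6 of 6, or 4 after median scaling, beside 37.5% and 13% of all genes. They had a sum of 16.9 TPM in Cas+T, 137 TPM in Cas+CO and 25.2 TPM in Sham. The part of these cells in the Mmp7 values was not tested. In bulk tissue RNA, fewer cells of a type and less RNA per cell cannot be told apart.

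Mmp12 ran the opposite way, and its spread between libraries was the widest of the 10. It encodes macrophage elastase, which cuts elastin and is made mainly by macrophages. Mmp12 (chromosome 9, 7344381 to 7369499, plus strand) was at 0.5 TPM in Cas+T, 161 TPM in Cas+CO and 0.15 TPM in Sham. It was the most abundant member in Cas+CO and under 1 TPM in the other libraries. The log2 difference was 7.14 for Cas+CO over Sham and −6.76 for Cas+T over Cas+CO, or 6.35 and −6.07 after median scaling. Cas+T and Sham were not compared because neither reached 1 TPM.

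Macrophage markers varied in the same direction but over a narrower range. All 12 were listed and none was at 0 in any library. They summed to 161 TPM in Cas+T, 927 TPM in Cas+CO and 115 TPM in Sham, and 11 of 11 compared were at least 2-fold higher in Cas+CO than in Sham, or 6 after median scaling, beside 37.5% and 13% of all genes. For every 100 TPM of these markers there was 0.31 TPM of Mmp12 in Cas+T, 17.4 TPM in Cas+CO and 0.13 TPM in Sham. Without Lyz2, which made up 52.4%, 53.5% and 29.6% of that sum in Cas+T, Cas+CO and Sham, the values were 0.652, 37.4 and 0.185 TPM in the same libraries. Mmp12 per macrophage marker transcript was thus higher in Cas+CO with either denominator. How far more macrophages account for the Mmp12 level was not tested.

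Mmp3 and Mmp9, which also belong to inflamed or healing tissue, stayed low. Mmp3, the stromelysin that cuts many matrix proteins and activates other proteases of the family, was at 0.07 TPM in Cas+T, 0.86 TPM in Cas+CO and listed at 0 in Sham, and it was compared nowhere. Mmp9, gelatinase B, a product of neutrophils and macrophages that cuts denatured collagen, was at 0.24 TPM in Cas+T, 1.35 TPM in Cas+CO and 0.41 TPM in Sham. Cas+CO held the highest level of both, but the Mmp9 differences of 0.74 for Cas+CO over Sham and −0.92 for Cas+T over Cas+CO did not reach 2-fold. With a pseudocount of 0.1 in place of 1 they were 1.51 and −2.09. Neutrophil markers, of which 8 of 9 were listed, summed to 47.4 TPM in Cas+T, 13.5 TPM in Cas+CO and 33.4 TPM in Sham. S100a8 made up 93.4%, 25.7% and 98% of these sums, and 4, 1 and 4 of the markers were at 0 in Cas+T, Cas+CO and Sham. Without S100a8 the sums were 3.13 TPM in Cas+T, 10.01 TPM in Cas+CO and 0.66 TPM in Sham, so Cas+CO was then highest.

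**Figure D2:**
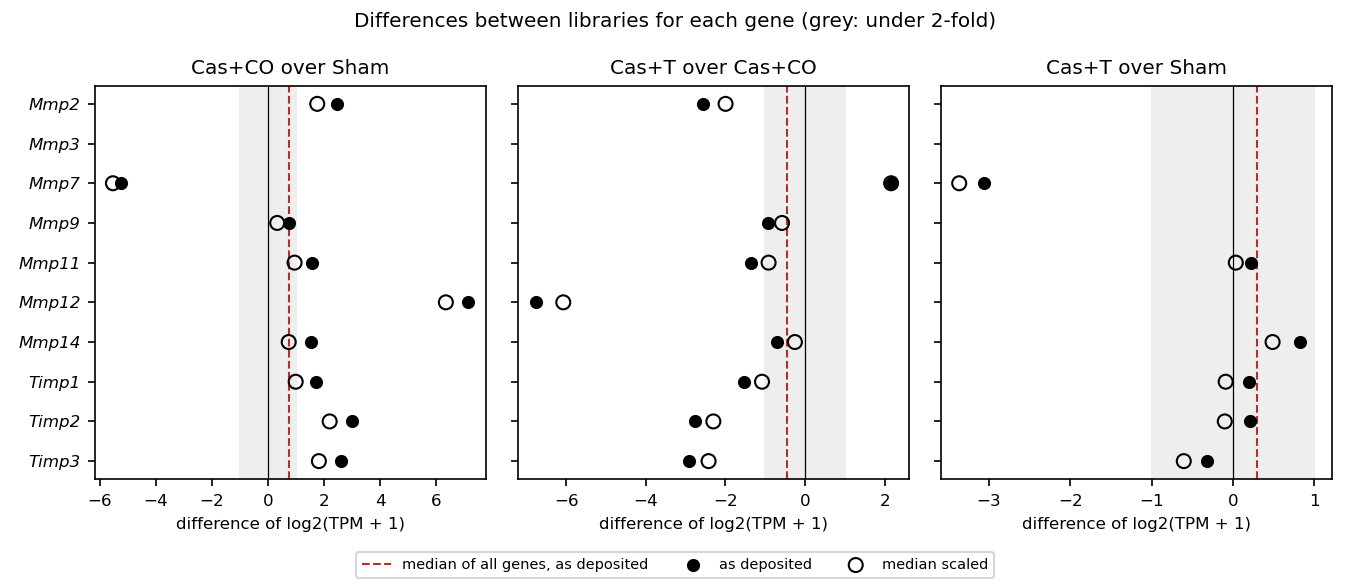
Difference of log2(TPM + 1) for each compared gene (horizontal axis) in Cas+CO over Sham, Cas+T over Cas+CO and Cas+T over Sham, as deposited (filled) and after median scaling (open); the grey band is under 2-fold and the dashed line is the median of all genes as deposited. Mmp7 at −5.22 and Mmp12 at 7.14 mark the ends of the first panel, and in the last panel Mmp7 alone lies outside the band among the 6 genes compared.

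Mmp14, Mmp2 and Timp2 act together at the cell surface. Mmp14 encodes a membrane-anchored collagenase that, with Timp2 as a bridge, activates the precursor of Mmp2, the gelatinase of connective tissue cells. On GRCm38 Mmp14 lies on chromosome 14, Mmp2 on chromosome 8 and Timp2 on chromosome 11. Mmp14 was at 42 TPM in Cas+T, 68.8 TPM in Cas+CO and 23.2 TPM in Sham, and it was the most abundant member in Cas+T. Its difference was 1.53 for Cas+CO over Sham (2.96-fold in TPM), −0.70 for Cas+T over Cas+CO and 0.83 for Cas+T over Sham. After median scaling all 3 were under 2-fold, at 0.74, −0.26 and 0.49.

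Mmp2 was at 0.78 TPM in Cas+T, 9.45 TPM in Cas+CO and 0.9 TPM in Sham. Its difference was 2.46 for Cas+CO over Sham and −2.55 for Cas+T over Cas+CO, and 1.76 and −2.00 after median scaling, so it stayed past the limit. Timp2 was at 10.9 TPM in Cas+T, 80.3 TPM in Cas+CO and 9.25 TPM in Sham, which is 8.69-fold higher in Cas+CO than in Sham. There were 0.26 Timp2 transcripts per Mmp14 transcript in Cas+T, 1.17 in Cas+CO and 0.398 in Sham. The library of castrated mice given corn oil was therefore the one in which Timp2 outnumbered Mmp14. For Mmp2 the ratio to Mmp14 was 0.0186 in Cas+T, 0.137 in Cas+CO and 0.0387 in Sham.

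Mmp11, stromelysin-3, which is made by connective tissue cells and activated by furin inside the cell, was at 1.31 TPM in Cas+T, 4.92 TPM in Cas+CO and 0.98 TPM in Sham. The difference of 1.58 for Cas+CO over Sham was 0.95 after median scaling, and that of −1.36 for Cas+T over Cas+CO was −0.92, so both calls ended there. Mmp11 overlaps Chchd10, a mitochondrial protein gene on the opposite strand that was at 91.2 TPM in Cas+T, 74.1 TPM in Cas+CO and 81.6 TPM in Sham. The sources used here do not say whether reads were counted by strand, so reads of Mmp11 and Chchd10 cannot be told apart where they overlap.

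All 3 inhibitors, whose genes lie on chromosomes X (Timp1), 11 (Timp2) and 10 (Timp3), were at their highest in Cas+CO. Timp1, a secreted inhibitor induced in many injured tissues, was at 4.96 TPM in Cas+T, 16.3 TPM in Cas+CO and 4.21 TPM in Sham. Timp3, which binds to the matrix and also inhibits several ADAM proteases, was at 4.73 TPM in Cas+T, 42.2 TPM in Cas+CO and 6.17 TPM in Sham. For Cas+CO over Sham the differences were 1.73 for Timp1, 2.99 for Timp2 and 2.59 for Timp3. After median scaling Timp2 and Timp3 stayed past 2-fold, at 2.21 and 1.82, and Timp1 was just under it at 0.99.

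Cas+T was lower than Cas+CO by 2-fold or more for each of the 3 inhibitors, with differences of −1.53 for Timp1, −2.77 for Timp2 and −2.92 for Timp3. Median scaling gave −1.08, −2.31 and −2.42 for the same genes, so these calls held. Between Cas+T and Sham they differed by 0.19, 0.22 and −0.32, all under 2-fold, and the first pair of values turned to −0.090 and −0.10 after median scaling. Timp2 overlaps Cep295nl on its own strand, at 0.64 TPM in Cas+T, 0 in Cas+CO and 0.74 TPM in Sham. Timp1 and Timp3 each lie inside a synapsin gene on the opposite strand. Syn1 was at 0.04 TPM in Cas+T, 0.09 TPM in Cas+CO and 0 in Sham. Syn3 was at 0.72 TPM in Cas+T, 1.77 TPM in Cas+CO and 1.51 TPM in Sham, so both host genes were listed below the inhibitor inside them in each library.

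Fibroblast markers were also highest in Cas+CO, except Pdgfra, which was at 3.07 TPM in Cas+T, 11.04 TPM in Cas+CO and 18.9 TPM in Sham. All 9 were listed, none at 0, with sums of 78.1 TPM in Cas+T, 1028 TPM in Cas+CO and 89.8 TPM in Sham. For every 100 TPM of them Mmp2 stood at 0.999 TPM in Cas+T, 0.919 TPM in Cas+CO and 1.002 TPM in Sham. With Dcn in the list the inhibitors were not as even: Timp1 stood at 6.35, 1.58 and 4.69 TPM, Timp2 at 13.95, 7.82 and 10.3 TPM and Timp3 at 6.06, 4.11 and 6.87 TPM per 100 TPM of markers in Cas+T, Cas+CO and Sham. Dcn alone made up 79.1%, 85.7% and 62.2% of the marker sum in these libraries. Without it Mmp2 stood at 4.77 TPM in Cas+T, 6.45 TPM in Cas+CO and 2.65 TPM in Sham, so its even ratio rested on Dcn. Without Dcn Timp1 stood at 30.3 TPM in Cas+T, 11.1 TPM in Cas+CO and 12.4 TPM in Sham, and Timp2 at 66.6, 54.8 and 27.2 TPM in these libraries. Timp3 stood at 28.9 TPM in Cas+T, 28.8 TPM in Cas+CO and 18.2 TPM in Sham without Dcn, which is more even than Mmp2. The part of fibroblast number in these levels was not tested.

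**Figure D3:**
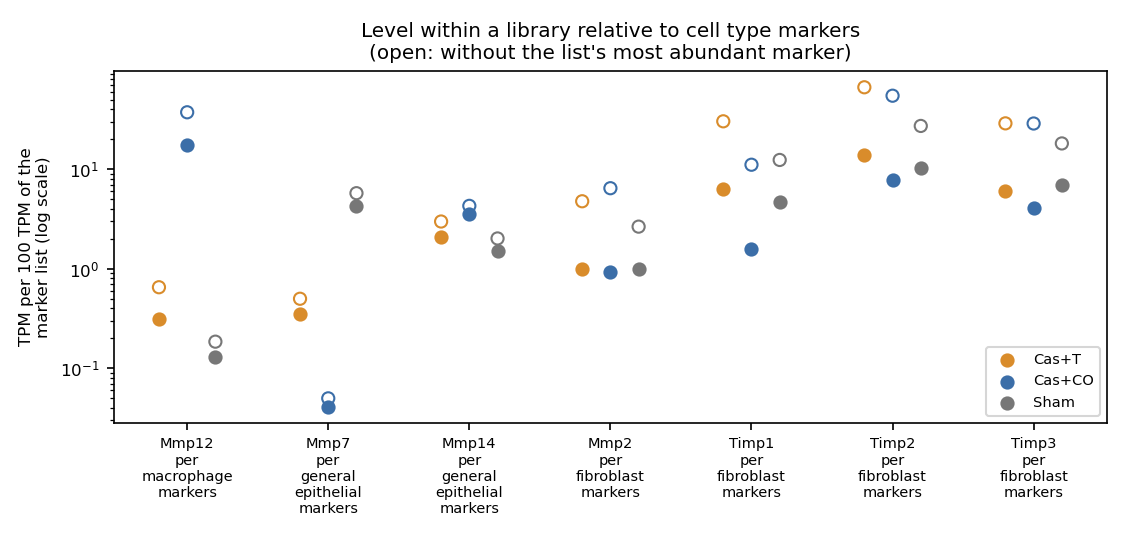
TPM of 7 genes per 100 TPM of a cell type's marker list in the same library (vertical axis, log scale), for Cas+T, Cas+CO and Sham; filled points use the whole list and open points leave out its most abundant marker. Mmp12 per macrophage marker is highest in Cas+CO at 17.4, and Mmp7 per general epithelial marker is highest in Sham at 4.29.

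Counted together for Cas+CO over Sham, 9 of the 10 members were compared, 7 were at least 2-fold higher and 1, Mmp7, was lower. The same limit was passed upward by 37.5% and downward by 6.49% of all 16170 genes, so a large share of members on the higher side has to be read against a large share of all genes. The median difference of the 9 members was 1.73, beside 0.76 for all genes. After median scaling the higher members numbered 4 (Mmp2, Mmp12, Timp2 and Timp3), beside 13% of all genes, and the lower member was again Mmp7, beside 11.7%.

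For Cas+T over Cas+CO, 9 members were compared, 1 (Mmp7) was at least 2-fold higher and 6 were lower, beside 6.89% and 23.4% of all genes. Mmp14 and Mmp9 were the members under the limit. The median difference was −1.53 for the 9 members and −0.46 for all genes. After median scaling 1 was higher and 5 were lower, beside 9.4% and 11.9% of all genes. For Cas+T over Sham, 6 members reached 1 TPM, none was higher and 1, Mmp7, was lower, beside 5.18% and 2.76% of all genes. Median scaling left both counts as they were, beside 2.11% and 3.99% of all genes. These 3 comparisons share libraries, so they are not independent of each other.

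The order of the members by level differed between libraries. It ran Mmp14, Timp2, Mmp7, Timp1 and Timp3 in Cas+T, Mmp12, Timp2, Mmp14, Timp3 and Timp1 in Cas+CO, and Mmp7, Mmp14, Timp2, Timp3 and Timp1 in Sham. With 1 library per group no spread is known, and neighbours such as Timp1 at 4.96 TPM and Timp3 at 4.73 TPM in Cas+T cannot be ranked. The 7 proteases summed to 51.9 TPM in Cas+T, 247 TPM in Cas+CO and 91.9 TPM in Sham, and the 3 inhibitors to 20.6 TPM, 139 TPM and 19.6 TPM in the same libraries. Inhibitor over protease was thus 0.397 in Cas+T, 0.561 in Cas+CO and 0.214 in Sham. The order of the libraries turned on a few genes: without the most abundant protease of each library (Mmp14 in Cas+T, Mmp12 in Cas+CO and Mmp7 in Sham) the ratio was 2.07 in Cas+T, 1.61 in Cas+CO and 0.764 in Sham.

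Along chromosome 9 the annotation placed 10 protease genes of the family in a row, with Mmp12 and Mmp7 separated by 322590 bases. These were the 2 genes of the row at 1 TPM or more in any library. Mmp8, Mmp10, Mmp13, Mmp20 and Mmp27, which lie in the same row, reached at most 0.75 TPM. Mmp1a and Mmp1b, a pair of closely related interstitial collagenases whose reads the counting may have divided, were at 0.93 and 0.45 TPM in Cas+T and at 0.62 and 0.68 TPM in Sham, and neither was above 0 in Cas+CO. Mmp1b converges on Mmp12 from the opposite strand, and it was listed at 0 in Cas+CO, where Mmp12 was high. An antisense gene that overlaps Mmp7, AV064505, was not listed in the libraries, so its level is not known.

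**Figure D4:**
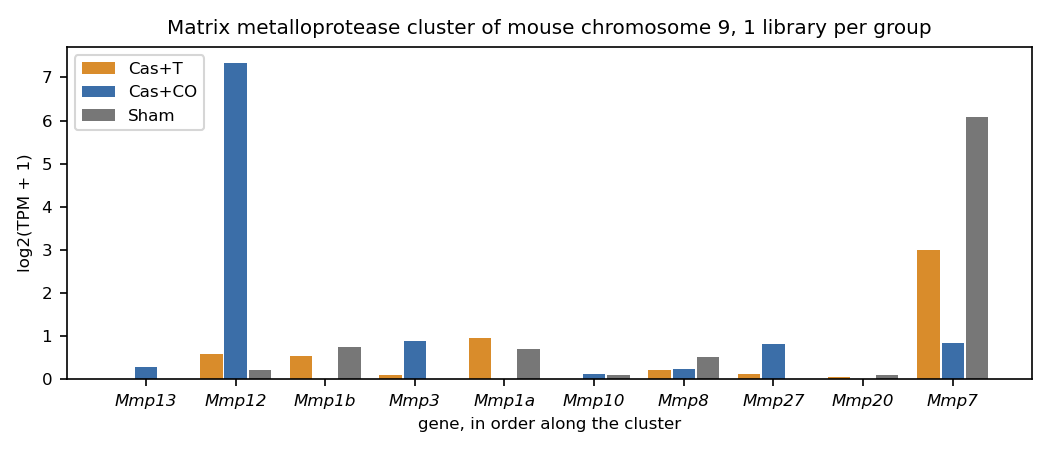
log2(TPM + 1) of the 10 protease genes of the chromosome 9 cluster (vertical axis), in their order along the chromosome (horizontal axis, not to scale), with 1 bar each for Cas+T, Cas+CO and Sham. Mmp12 is high in Cas+CO and Mmp7 in Sham, at opposite sides of genes that all stay under 1 TPM.

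Other matrix metalloproteases were sparse. Of 16 further family genes looked up, 15 were listed and 5 reached 1 TPM in any library. Mmp19, a protease with broad matrix substrates, was at 0.17 TPM in Cas+T, 7.55 TPM in Cas+CO and 0.18 TPM in Sham. Mmp23 was at 1.08, 9.14 and 2.3 TPM in these libraries, and Mmp15, a membrane-type relative of Mmp14, at 1.61, 5.34 and 1.01 TPM. These 3 were at least 2-fold higher in Cas+CO than in Sham, of 4 compared, beside 37.5% of all genes. For Cas+T over Cas+CO they were at least 2-fold lower, of 5 compared, beside 23.4% of all genes. Median scaling left 2 of the 3 past the limit in each comparison, beside 13% and 11.9% of all genes. Mmp28, epilysin, an epithelial protease, was at 6.36 TPM in Cas+T, 2.82 TPM in Cas+CO and 3.08 TPM in Sham, and Mmp16 at 1.82, 0.51 and 0.54 TPM, so both were highest in Cas+T. In TPM the Mmp28 level in Cas+T was 2.26 times that in Cas+CO, but on the log2(TPM + 1) scale both genes were under the limit in each comparison made. After median scaling Mmp28 was past the limit for Cas+T over Cas+CO, at 1.19. Among the other inhibitors, Timp4 was at 0.31 TPM in Cas+T, 3.44 TPM in Cas+CO and 0.13 TPM in Sham. Reck, a membrane-anchored inhibitor, was at 0.66, 3.46 and 0.62 TPM, and Tfpi2 at 0.08, 1.37 and 0.42 TPM. Timp4 and Reck were at least 2-fold higher in Cas+CO over Sham, of 3 compared, beside 37.5% of all genes. All 3 were at least 2-fold lower in Cas+T over Cas+CO, beside 23.4% of all genes. After median scaling this held for 1 gene in each comparison, beside 13% and 11.9% of all genes.

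Genes around activation of the proteases included inhibitors as well as activators. In the plasminogen system, which makes the activator plasmin, 4 of 6 compared genes were at least 2-fold higher in Cas+CO than in Sham. A further 2 were lower, and after median scaling the counts were 3 and 2. Of all genes 37.5% were higher and 6.49% lower, or 13% and 11.7% after median scaling. The 2 lower genes of the list were serine protease inhibitors. Serpine2, protease nexin-1, was at 137 TPM in Cas+T, 9.03 TPM in Cas+CO and 192 TPM in Sham, and Serpinf2, the inhibitor of plasmin, was at 41.9 TPM in Cas+T and 52.3 TPM in Sham and was listed at 0 in Cas+CO. Plau, the urokinase activator, was at 71.7 TPM in Cas+T, 121 TPM in Cas+CO and 56.1 TPM in Sham, a difference of 1.10 for Cas+CO over Sham, or 0.31 after median scaling. Of 4 proprotein convertases, Pcsk5 and Pcsk6 were at least 2-fold higher in Cas+CO than in Sham, with and without median scaling. That is 2 of 4, beside 37.5% of all genes, or 13% after median scaling. Pcsk6 was at 0.52 TPM in Cas+T, 13.9 TPM in Cas+CO and 0.4 TPM in Sham. Furin, the convertase that activates Mmp11 and Mmp14, was at 45.8 TPM in Cas+T, 52.96 TPM in Cas+CO and 36.4 TPM in Sham, within 2-fold in all 3 comparisons.

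Most partner and substrate genes had their highest level in Cas+CO. Of 8 partners, 3 were at least 2-fold higher in Cas+CO than in Sham, namely the tetraspanin Cd9, which was under the limit after median scaling, Lrp1, which takes up proteases and inhibitors from outside the cell, and Cd44, which anchors proteases to the surface. That share equals the 37.5% of all genes, and the list's median of 0.77 is close to the 0.76 of all genes. Cd44 was at 2.23 TPM in Cas+T, 35.45 TPM in Cas+CO and 1.04 TPM in Sham. Lcn2, whose protein forms a complex with Mmp9 in humans, was the lower one, at 1004 TPM in Cas+T, 538 TPM in Cas+CO and 1827 TPM in Sham. Basement membrane genes were at least 2-fold higher in Cas+CO than in Sham for 10 of 12, with a median of 1.70, and interstitial matrix genes for 12 of 14 compared, with a median of 2.13. This stands beside 37.5% of all genes and their median of 0.76. After median scaling 6 and 10 were higher, beside 13% of all genes, and none of either list was lower in any of these counts. Hspg2, the basement membrane proteoglycan perlecan, was at 2.89 TPM in Cas+T, 19.9 TPM in Cas+CO and 2.7 TPM in Sham. Col3a1, a fibrillar collagen, was at 28.6 TPM in Cas+T, 304 TPM in Cas+CO and 16.9 TPM in Sham. For Cas+T over Cas+CO, 11 of 12 basement membrane and 11 of 14 interstitial genes were lower, or 6 and 9 after median scaling, beside 23.4% and 11.9% of all genes. Fn1, fibronectin, was the gene of these lists past 2-fold in Cas+T over Sham, at 17.3 TPM in Cas+T and 5.31 TPM in Sham. It was 1 of 10 interstitial genes compared there, and none of 12 basement membrane genes passed. Of all genes 5.18% were higher and 2.76% lower in that comparison.

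**Figure D5:**
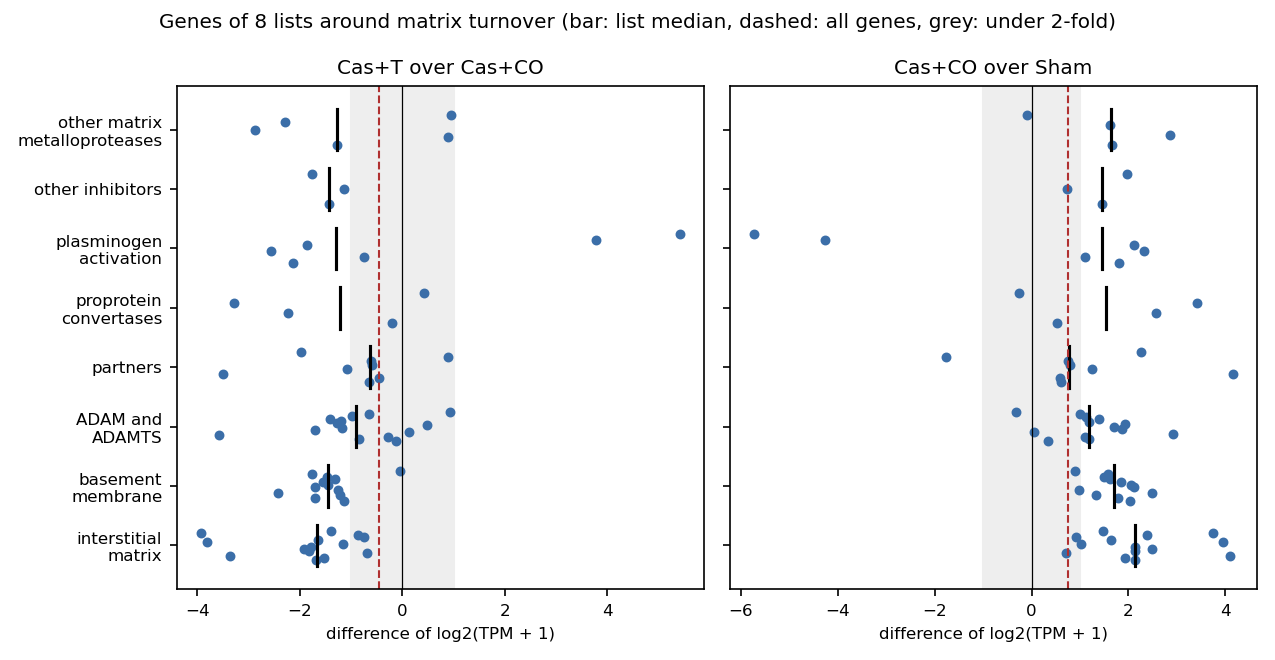
Difference of log2(TPM + 1) for the compared genes of 8 lists around matrix turnover (points, horizontal axis) in Cas+T over Cas+CO and Cas+CO over Sham; short bars are list medians, the dashed line is the median of all genes and the grey band is under 2-fold. In the plasminogen list Serpine2, at −4.27, and Serpinf2, listed at 0 in Cas+CO, lie far to the left for Cas+CO over Sham.

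For the 3 members with the widest spread, the genes with the nearest pattern were sought among 10153 genes at 10 TPM or more in at least 1 library, by distance between centred log2(TPM + 1) values over the 3 libraries. Nearest to Mmp12 were Spp1, which encodes osteopontin, at 0.56 TPM in Cas+T, 221 TPM in Cas+CO and 0.88 TPM in Sham (distance 0.46), then Igkc, H2-T23, Crisp3 and Gm9493. Nearest to Mmp7 were Spint4, a Kunitz-type protease inhibitor, at 110 TPM in Cas+T, 45.2 TPM in Cas+CO and 1290 TPM in Sham (distance 0.63), then Obp2a, Klrb1c, Gm3428 and Col6a4. Nearest to Timp2 were Nrep, Gpc3, Sh2d4a, mt-Co2 and Col15a1, at distances of 0.055 to 0.090. With 3 libraries a near match is easily had, and these likenesses are descriptions of the libraries.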

How the data were processed

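Epididymis RNA was extracted on columns and sequenced by standard Illumina protocols, per the labels. How reads were aligned and counted, on which build and whether by strand, is not given in the sources used here. Deposited log2 values were read as log2(TPM + 1), because undoing the log gave steps of 0.01 (within 0.001), sums of 1000000 and larger lowest values for short genes. TPM keeps no depth, and a listed 0 may be a failed estimate.

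Of 23538 rows, 937 without a symbol were looked up by identifier in GENCODE M21 (GRCm38), the source of gene coordinates; rows sharing a symbol were summed. Differences used a pseudocount of 1 and a minimum of 1 TPM, with no test. Members, 8 pathway lists and 16 marker lists were chosen with earlier results of these data known. Named genes were all members, other family genes at 1 TPM, and up to 3 genes per list and comparison with the largest differences at 10 TPM or more; low cluster genes, overlapping genes and single markers were named after their values were seen. The alternatives changed the pseudocount (0.1), the minimum (10 TPM or none), the fold limit (4) or the scaling (median, or totals leaving out each library's 50 top genes). Code was tested on simulated data, with Python 3.11.15, pandas 2.3.3, NumPy 2.4.6 and matplotlib 3.10.9.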

Additional observations from a re-analysis of the deposited data

How the results depend on the processing

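With 1 library per group and TPM values, no replicate error, depth or test exists, and no paired analysis was possible because each group had 1 library. Of 110 member differences listed under an alternative, 102 kept their direction and their side of the 2-fold limit. Of these 102, 24 with no minimum and 14 with a minimum of 10 TPM could not have differed. A minimum only decides which genes are compared and leaves the difference itself as it was. The others that kept both were 18 with median scaling, 22 with a pseudocount of 0.1 and 24 with totals leaving out the top genes. Median scaling took 4 under the limit, namely Mmp11 (0.95), Mmp14 (0.74) and Timp1 (0.99) for Cas+CO over Sham, and Mmp11 again (−0.92) for Cas+T over Cas+CO. It turned the small Cas+T over Sham differences of Timp1 to −0.090 and of Timp2 to −0.10. A pseudocount of 0.1 took Mmp9 past the limit, with 1.51 when Cas+CO was set over Sham and −2.09 when Cas+T was set over Cas+CO. The 7 members higher in Cas+CO than in Sham became 4 with median scaling and 4 with a 4-fold limit. With a minimum of 10 TPM Mmp7 was no longer compared between Cas+T and Cas+CO, and the count of higher members there was 0.

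After the data were seen, members were also matched by the symbol in the files alone, which leaves out Mmp7: the counts of 1 that rest on it became 0. Inhibitor over protease was then 0.459 in Cas+T, 0.563 in Cas+CO and 0.764 in Sham, so that Sham had the highest ratio in place of the lowest. Without the most abundant protease of each library that ratio was 2.07 in Cas+T, 1.61 in Cas+CO and 0.764 in Sham. Without the most abundant inhibitor it was 0.187 in Cas+T, 0.237 in Cas+CO and 0.113 in Sham. The causes of these changes were not tested.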

Other observations

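Related metalloproteases of the ADAM and ADAMTS families, which shed cell surface proteins or cut proteoglycans, were described separately. Of 16 genes, 13 were compared in Cas+CO over Sham, where 9 were at least 2-fold higher and none lower, with a median of 1.18 beside 0.76 for all genes, of which 37.5% were higher. After median scaling 4 were higher, beside 13% of all genes. In Cas+T over Cas+CO 6 of 14 were lower and none higher, beside 23.4% and 6.89% of all genes. After median scaling 2 were lower and 1 was higher, near the 11.9% and 9.4% of all genes. Adam8, a protease of myeloid cells, was at 0.5 TPM in Cas+T, 16.96 TPM in Cas+CO and 1.37 TPM in Sham. Adamts1, which cuts versican, was at 3.19 TPM in Cas+T, 12.6 TPM in Cas+CO and 2.72 TPM in Sham, and Adamts15 was at 4.76, 12.95 and 2.65 TPM in these libraries. The broadly expressed sheddases stood closer together: Adam10 was at 64.35 TPM in Cas+T, 70.1 TPM in Cas+CO and 55.5 TPM in Sham. Adam17 was at 18.8 TPM in Cas+T, 22.8 TPM in Cas+CO and 10.2 TPM in Sham, a difference of 1.09 for Cas+CO over Sham that was under 2-fold after median scaling.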
